A study of Mus musculus and Homo sapiens with 9 samples.

Results

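The 51 mouse genes described here carry proteasome names: they are all protein-coding genes of the RefSeq annotation (GRCm38.p6, the coordinates of mm10) on placed chromosomes whose symbols begin with Psm, a letter from a to g and a number. They are 51 of 21887 protein-coding genes in all. Binding of TDG (thymine DNA glycosylase), which excises mispaired thymine and oxidised forms of methylcytosine in base excision repair, and of the transcription factor p53 was located by chromatin immunoprecipitation and sequencing (ChIP-seq). The lists analysed come from B16, a mouse melanoma cell line, with an HA knock-in at the Tdg gene: 1 library was made with the HA antibody, which marks the tagged TDG, and the other with the p53 antibody. Both libraries share the tagged Tdg allele, and no treatment is given in their labels. The other 7 samples were not analysed here. They are the input, the IgG control, the HA antibody in WT cells and the p53 antibody in Trp53 KO cells, all B16, and 3 samples of the human line NCI-H1299 expressing FLAG-TDG, labelled DMSO, C271 and IgG. HA-list peaks are called TDG peaks, although their dependence on the tag, like that of the p53 peaks on p53, was not tested.

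The proteasome is the barrel-shaped protease that degrades ubiquitin-tagged proteins. Its core particle is built of alpha rings, which gate the entrance, and beta rings, which hold the cutting sites. A regulatory particle sits on the core: its base holds ATPases that unfold the substrate, and its lid removes ubiquitin. In immune cells and under interferon, Psmb8, Psmb9 and Psmb10 replace the constitutive catalytic subunits Psmb5, Psmb6 and Psmb7, which shifts the peptides made for antigen presentation. Other activators can cap the core, and dedicated chaperones assemble it. Of the 51 genes, 14 encode constitutive core subunits, 2 tissue-specific core subunits, 3 immunoproteasome subunits, 9 the base, 8 the lid, 5 activators and an inhibitor, and 7 assembly chaperones. The name rule also took in 3 genes outside these classes. Psmc3ip encodes a meiotic recombination protein and Psme3ip1 a partner of the activator Psme3. Psme2b is a copy of Psme2.

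The promoters that follow are shown because TDG peaks lay over 6 of them, and because Psmb8 and Psmb9 of the immunoproteasome serve as members without a peak. Each is the RefSeq sequence of GRCm38.p6 from 250 bases before to 50 bases after the listed gene start, read along the gene's own strand from its 5′ end. Capitals mark CpG dinucleotides, the context of the methylcytosine that TDG acts on after oxidation. Psma5 is at chr3:108256676-108256975 (+ strand), Psmc4 at chr7:28050043-28050342 (− strand), Psme2 at chr14:55591052-55591351 (− strand), Psme3 at chr11:101315963-101316262 (+ strand), Psmg1 at chr16:95990911-95991210 (− strand) and Psma3 at chr12:70974373-70974672 (+ strand). Psmb8 is at chr17:34197945-34198244 (+ strand) and Psmb9 at chr17:34187281-34187580 (− strand).
Psma5: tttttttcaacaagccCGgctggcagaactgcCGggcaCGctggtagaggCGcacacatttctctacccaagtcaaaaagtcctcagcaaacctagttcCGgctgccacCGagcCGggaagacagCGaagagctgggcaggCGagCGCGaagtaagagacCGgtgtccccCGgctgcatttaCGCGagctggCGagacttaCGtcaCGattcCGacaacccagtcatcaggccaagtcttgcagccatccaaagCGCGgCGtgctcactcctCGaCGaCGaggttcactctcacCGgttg
Psmc4: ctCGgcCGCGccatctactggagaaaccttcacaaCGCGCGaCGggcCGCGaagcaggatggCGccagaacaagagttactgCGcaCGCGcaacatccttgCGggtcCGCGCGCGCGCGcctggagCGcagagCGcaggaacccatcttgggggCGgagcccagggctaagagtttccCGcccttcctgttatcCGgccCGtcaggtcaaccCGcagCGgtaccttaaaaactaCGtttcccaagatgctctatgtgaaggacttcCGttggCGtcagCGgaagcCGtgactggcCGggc
Psme2: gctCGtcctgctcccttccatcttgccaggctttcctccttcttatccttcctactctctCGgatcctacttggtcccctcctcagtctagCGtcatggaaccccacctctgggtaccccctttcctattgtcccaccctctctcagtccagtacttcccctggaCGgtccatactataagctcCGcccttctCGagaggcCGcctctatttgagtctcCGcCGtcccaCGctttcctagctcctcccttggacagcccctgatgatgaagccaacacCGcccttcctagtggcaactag
Psme3: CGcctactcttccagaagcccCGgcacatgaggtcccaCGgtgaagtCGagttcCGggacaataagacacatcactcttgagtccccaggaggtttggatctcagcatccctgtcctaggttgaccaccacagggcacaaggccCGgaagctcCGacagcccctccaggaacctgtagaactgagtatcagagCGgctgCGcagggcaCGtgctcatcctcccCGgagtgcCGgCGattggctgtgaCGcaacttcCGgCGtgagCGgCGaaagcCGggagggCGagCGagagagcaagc
Psmg1: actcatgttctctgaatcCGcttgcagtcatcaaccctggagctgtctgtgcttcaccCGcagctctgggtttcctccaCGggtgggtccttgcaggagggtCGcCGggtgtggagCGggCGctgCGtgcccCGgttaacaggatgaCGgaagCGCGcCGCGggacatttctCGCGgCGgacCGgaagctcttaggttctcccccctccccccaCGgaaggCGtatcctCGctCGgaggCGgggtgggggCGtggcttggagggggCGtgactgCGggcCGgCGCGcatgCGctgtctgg
Psma3: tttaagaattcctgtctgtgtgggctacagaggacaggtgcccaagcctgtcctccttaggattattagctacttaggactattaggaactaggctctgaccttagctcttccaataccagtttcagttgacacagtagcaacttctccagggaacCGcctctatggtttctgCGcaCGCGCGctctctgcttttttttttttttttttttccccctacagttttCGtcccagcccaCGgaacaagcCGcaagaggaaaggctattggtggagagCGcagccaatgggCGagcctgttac
Psmb8: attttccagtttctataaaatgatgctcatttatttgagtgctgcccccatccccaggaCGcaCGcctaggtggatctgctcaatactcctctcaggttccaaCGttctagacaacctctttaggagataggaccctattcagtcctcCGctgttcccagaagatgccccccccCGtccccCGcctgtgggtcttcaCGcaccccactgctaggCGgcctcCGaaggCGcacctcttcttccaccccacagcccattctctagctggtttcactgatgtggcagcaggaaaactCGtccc
Psmb9: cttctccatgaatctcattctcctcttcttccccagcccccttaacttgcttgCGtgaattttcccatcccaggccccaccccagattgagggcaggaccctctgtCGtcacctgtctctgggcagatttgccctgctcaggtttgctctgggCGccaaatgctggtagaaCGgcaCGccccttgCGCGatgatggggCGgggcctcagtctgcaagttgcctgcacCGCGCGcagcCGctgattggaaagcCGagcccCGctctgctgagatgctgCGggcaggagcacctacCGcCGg

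The printed promoters varied in CpG number. Psmc4 had 34 CpG dinucleotides in its 300 bases, Psmg1 30, Psma5 26 and Psme3 21. Psme2, which had a TDG peak, held 11, as many as Psmb8, which had none, and fewer than the 17 of Psmb9. Psma3 held 10.

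TDG peaks were counted at few proteasome genes. A TDG summit lay within 1 kb of an end of 7 of the 51 genes (13.7%, exact binomial 95% interval 5.70 to 26.3%), against 12.3% of all protein-coding genes, so the share was close to the background. The 7 genes were Psma5 of the core, Psmc3 and Psmc4 of the base, the activator genes Psme2 and Psme3, the chaperone gene Psmg1 and, outside the classes, Psme3ip1. Within the classes 6 of 48 genes (12.5%) had a TDG peak. Each list stands for 1 library with no replicate, so no test was made. The interval covers counting error only.

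**Figure D1:**
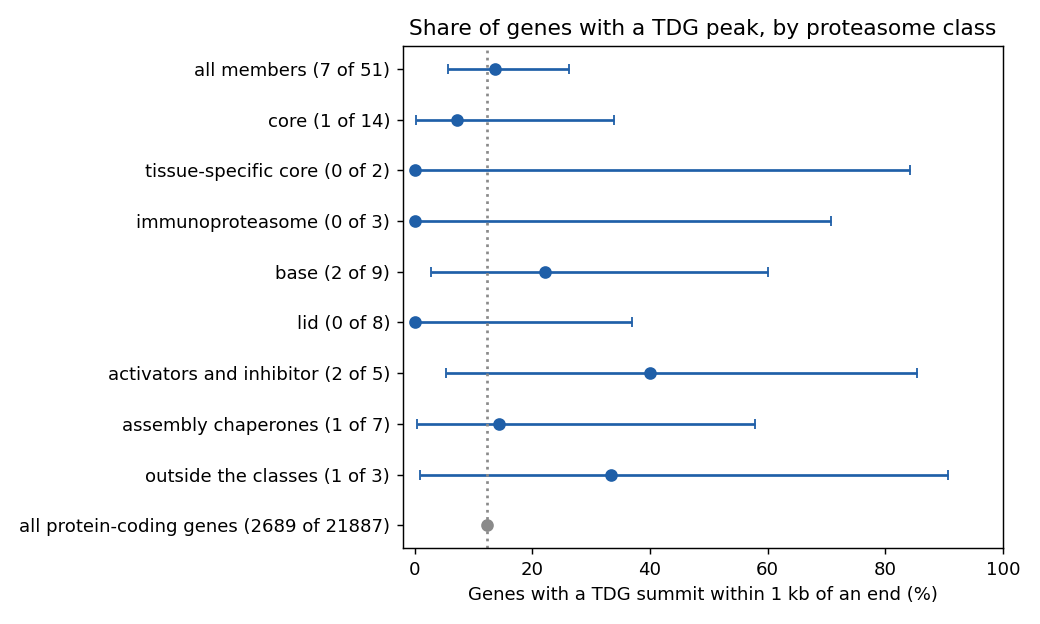
Share of genes with a TDG summit within 1 kb of either gene end (x axis, percent), by class (y axis), with exact binomial 95% intervals; the dotted line is the share over all protein-coding genes. The intervals of all classes span the 12.3% of all genes. The lid, immunoproteasome and tissue-specific core have no gene under the name rule with a peak.

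In the constitutive core, 1 of 14 genes (7.14%, interval 0.181 to 33.9%) had a TDG peak, against 12.3% of all genes. Psma5 encodes an alpha ring subunit, and its peak (chr3:108256783-108257082) had its summit 80 bases before the listed gene start (gene at 108256926 to 108279952, + strand). The authors' fold enrichment (summit over local background) was 3.90 there, the lowest of the 7 genes, and the −log10 q was 3.92. The summit was recovered as 20 reads (exact Poisson 95% interval 12.2 to 30.9) over a local background of 4.00 scaled reads. None of the 7 constitutive beta ring genes had a peak within 1 kb. Psmb5, Psmb6 and Psmb7, the genes for the catalytic subunits, lay 68786, 73206 and 361352 bases from the nearest TDG summit.

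Psma3, another alpha ring gene, shows how the annotation bears on the core count. Its gene record runs from 70969283 to 70995877 on chromosome 12, and a TDG summit inside it lay 5385 bases from the nearer end, so the gene was not counted. The promoter table, however, lists the Psma3 start inside the record, and the summit lay 45 bases after that start. The peak (chr12:70974421-70974703) had a fold enrichment of 4.27 (−log10 q 5.14). Its summit held 22 reads (13.8 to 33.3). With listed gene starts in place of gene ends, 2 of the 11 core genes with a listed promoter had a TDG peak, Psma5 and Psma3.

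In the base of the regulatory particle, 2 of 9 genes (22.2%, interval 2.81 to 60.0%) had a TDG peak, against 12.3% of all genes. Both encode ATPases. The summit at Psmc3 (gene at 91054016 to 91059438 on chromosome 2) lay 29 bases inside the lower end, in a peak at chr2:91053981-91054263. The summit at Psmc4 (28041702 to 28050092 on chromosome 7) lay 84 bases before the listed start, in a peak at chr7:28049729-28050313. Each reached 5.47-fold (−log10 q 6.60). Each was recovered as 20 reads (12.2 to 30.9) over the genome-wide background, which is 2.56 scaled reads. Their values coincide because each is 20 whole reads over that same background. The peaks differed in width, 283 bases at Psmc3 and 585 bases at Psmc4. The ATPase genes Psmc1, Psmc2, Psmc5 and Psmc6, the scaffold genes Psmd1 and Psmd2 and the ubiquitin receptor gene Psmd4 had no TDG summit within 1 kb.

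None of the 8 lid genes under the name rule had TDG at an end (0%), against 12.3% of all genes. Their exact upper limit was 36.9% (3 counts would be 37.5%). They include Psmd14, which encodes the enzyme that removes ubiquitin from the substrate and lay 2303893 bases from the nearest TDG summit. The closest lid gene was Psmd8, at 4180 bases, with its nearest TDG summit at the gene Spred3. Outside the name rule, Sem1 of the lid (5.09-fold) and Adrm1 of the base (4.41-fold) each had a TDG peak. They are not in the counts here. Base and lid together had 2 of 17 genes with a peak (11.8%, interval 1.46 to 36.4%). With intervals this wide, no difference between core, base and lid was detectable.

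The immunoproteasome genes had no TDG peak at an end either, 0 of 3 (exact upper limit 70.8%), against 12.3% of all genes. Psmb8 and Psmb9 sit close together on chromosome 17, on either side of the peptide transporter gene Tap1, and share their nearest TDG peak (chr17:34122417-34122877), which lies at the end of Brd2. It was 75762 bases from Psmb8 and 59597 bases from Psmb9, and its fold enrichment was 3.55. Psmb10, on chromosome 8, was 27855 bases from a summit at Slc12a4. These distances overlapped those of the replaced subunits Psmb5, Psmb6 and Psmb7. Neither tissue-specific core gene, Psma8 of testis or Psmb11 of the thymus, had a TDG peak at an end.

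**Figure D2:**
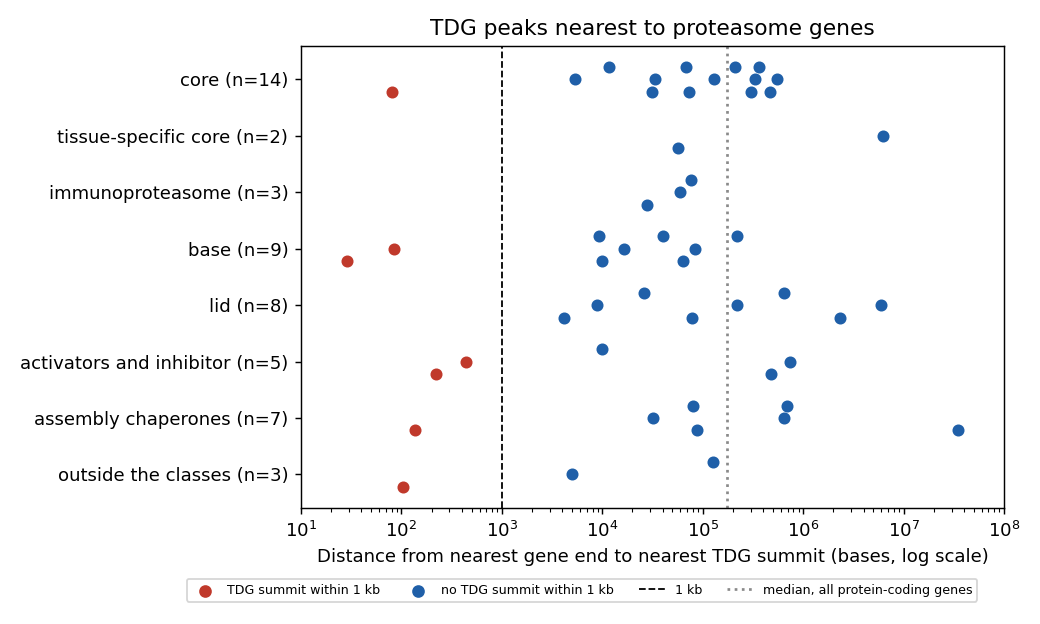
Distance from the nearer gene end to the nearest TDG summit (x axis, bases, log scale) for each of the 51 genes by class (y axis); red points are genes within 1 kb (dashed line) and the dotted line is the median of all protein-coding genes. A gap without genes separates Psme2 at 439 bases from Psmd8 at 4180 bases.

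Among the activators and the inhibitor, 2 of 5 genes (40.0%, interval 5.27 to 85.3%) had a TDG peak, against 12.3% of all genes. Psme2, which encodes an interferon-inducible activator subunit that pairs with Psme1, had a peak (chr14:55590994-55591617) of 5.28-fold (−log10 q 7.71), its summit holding 24 reads (15.4 to 35.7). The summit lay 439 bases before the Psme2 start and 173 bases from the lower end of the neighbouring gene Rnf31, so it was nearer to Rnf31. Psme1 lay 10013 bases from the same summit and was not counted. Psme3, which encodes the nuclear activator, had a peak (chr11:101315961-101316274) of 5.37-fold (−log10 q 8.60) with 28 reads (18.6 to 40.5), 220 bases before its start. Psme4, the gene of a further activator, and Psmf1, the inhibitor gene, lay 745721 and 482505 bases from a TDG summit.

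Of the 7 assembly chaperone genes 1 had a TDG peak (14.3%, interval 0.361 to 57.9%), against 12.3% of all genes. Psmg1 encodes a chaperone of alpha ring assembly, and its peak (chr16:95990733-95990999) reached 5.00-fold (−log10 q 7.87) with 26 reads (17.0 to 38.1). The summit lay 136 bases after the start, inside the gene. Psmg2, Psmg3 and Psmg4, and the base chaperone genes Psmd5, Psmd9 and Psmd10, had none. Psmd10 is on the X chromosome, where a TDG peak was counted for 1 of 966 protein-coding genes (0.104%).

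The strongest of the 7 peaks was at a gene that is not part of the proteasome. Psme3ip1 had a peak (chr8:94601697-94601971) of 7.40-fold (−log10 q 14.1) with 32 reads (21.9 to 45.2), and the summit was nearer to the end of Rspry1 (84 bases) than to that of Psme3ip1 (105 bases). LOC115486880 also had an end within 1 kb. The median fold enrichment of the 7 peaks was 5.37 (range 3.90 to 7.40), against 5.99 for the 2290 TDG peaks at ends of any protein-coding gene. The 6 peaks of genes in the classes, from 3.90 to 5.47, were below that median, and the peak at Psme3ip1 was above it. Of the peaks at gene ends, 3.19% had a lower fold enrichment than the peak of Psma5 and 33.6% a lower one than those of Psmc3 and Psmc4. The median width was 300.0 bases for the 7 peaks and 433 bases for all gene-end peaks. Both medians of the reads at the summit were 24.0.

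**Figure D3:**
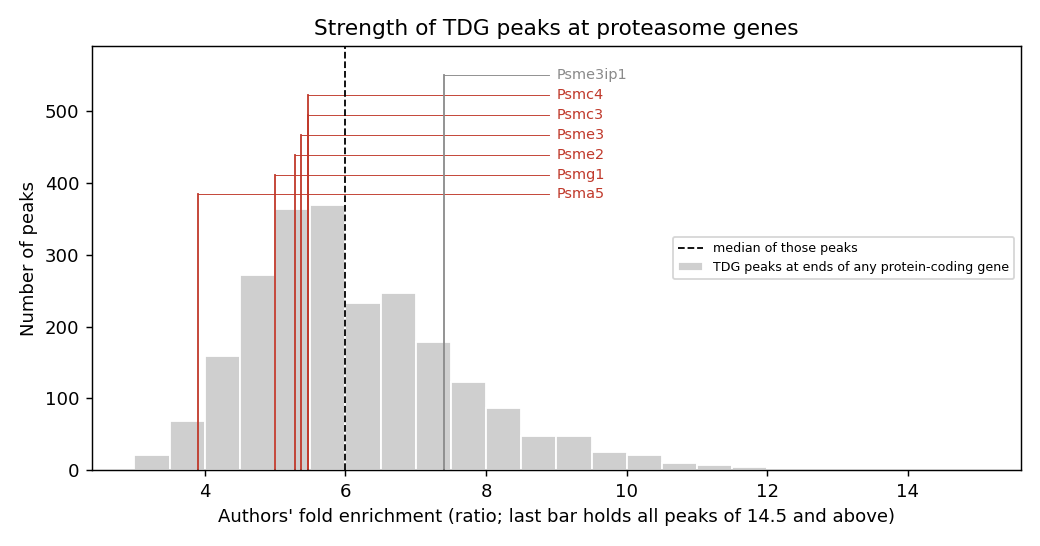
Number of TDG peaks (y axis) by the authors' fold enrichment (x axis, ratio) for all 2290 peaks at ends of protein-coding genes (bars), with the 7 proteasome-named genes as vertical lines. All 6 genes of the classes (red) sit left of the median of 5.99 (dashed line), and Psme3ip1 (grey) sits right of it at 7.40-fold.

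Where strand was known, the TDG peaks lay over gene starts. The promoter table lists 43 of the 51 genes, among them every gene with a peak except Psmc3, and all 6 of these had the peak within 1 kb of the listed start. Adding Psma3, 7 of 43 genes (16.3%) had a TDG summit within 1 kb of a start, against 13.6% of all 17492 genes with a listed promoter. Summits ranged from 439 bases before the start, at Psme2, to 136 bases after it, at Psmg1, and each of the 7 peaks covered the start itself. Each of the 7 genes counted by gene ends had a TDG summit at one end only.

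**Figure D4:**
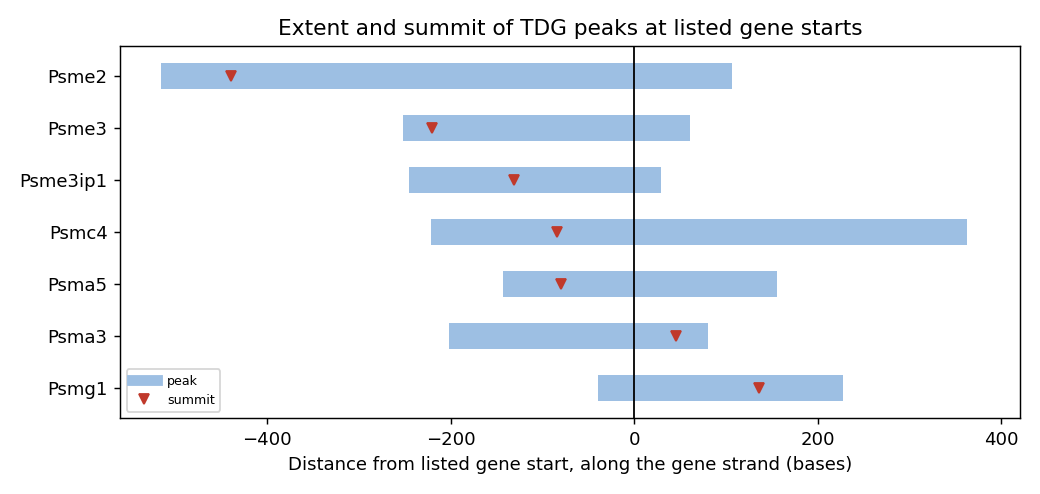
TDG peaks (blue bars) and their summits (red triangles) at the 7 genes with a peak within 1 kb of a listed gene start, as distance from that start along the gene's strand (x axis, bases). Every bar crosses the start, and 5 of the 7 summits lie before it.

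Most promoters of proteasome genes were rich in CpG. Over 300 bases, the median ratio of observed to expected CpG was 0.763 in the 43 members with a listed promoter, against 0.610 in all 17492 genes with one (1 promoter a gene, that with the highest ratio). A CpG-rich promoter, with a ratio of at least 0.6 and a GC content of at least 50%, was found in 30 of the 43 members (69.8%) and 48.2% of all genes. Among all genes, 22.5% of those with any CpG-rich promoter had a TDG peak at an end, against 4.00% of those with other promoters. Read against that background, the 30 members with a CpG-rich promoter had a TDG peak in 5 cases (16.7%, interval 5.64 to 34.7%). The 13 others had a peak in 1 case, Psme2 (7.69%, interval 0.195 to 36.0%). Both intervals hold the matching share of all genes. Psma3 is among the 13 and was not counted, because its TDG peak lay at the listed start and not at a gene end.

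**Figure D5:**
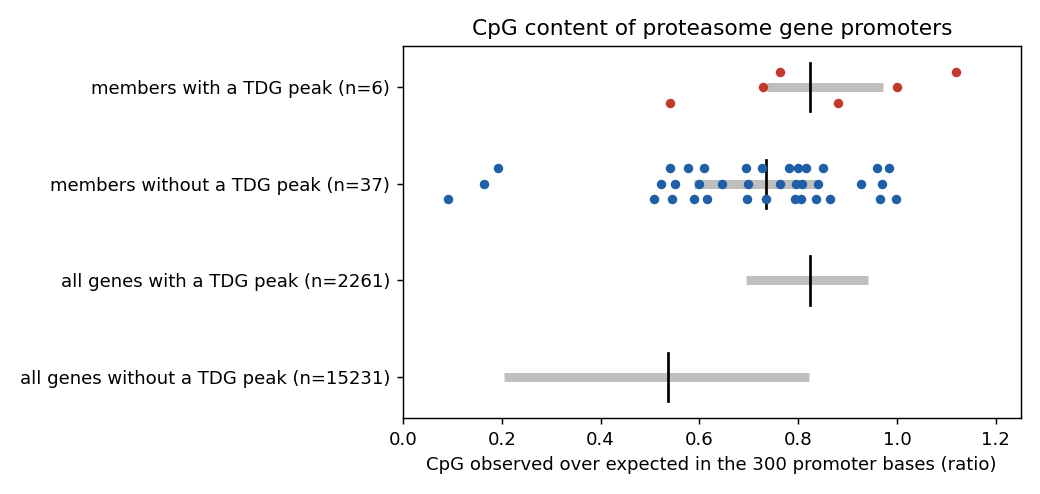
Ratio of observed to expected CpG in the 300 promoter bases (x axis) for members with and without a TDG peak (points are genes) and for all genes with and without one; grey bars span the quartiles and black ticks are medians. Members without a peak have a median of 0.734, above the 0.536 of all genes without one, and Psmb10, Psmb11 and Psme2b stand apart at ratios below 0.2.

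CpG content overlapped between members with a TDG peak at a gene end and those without, Psma3 counting among the second. The 6 members with a peak had ratios from 0.541 to 1.12 (median 0.823), and the 37 without one had ratios from 0.0904 to 0.999 (median 0.734). Psmb5, for one, had a ratio of 0.999 and no peak. Over all genes the medians were 0.824 with a peak and 0.536 without. The immunoproteasome genes were at the low side, with 0.192 at Psmb10, 0.523 at Psmb8 and a value just under the limit of 0.6 at Psmb9. Of the subunits they replace, Psmb5 had 0.999 and Psmb6 0.727, and Psmb7 has no listed promoter. The constitutive core genes Psmb4 (0.544) and Psma3 (0.550) lay in the range of Psmb8 and Psmb9, and the other listed core genes were above 0.6. Outside the core, Psmd10 (0.540), Psme2 (0.541), Psme1 (0.576) and Psmd9 (0.589) lay in that range too. The median of the 43 members with a listed promoter was 0.763.

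Short motifs were searched on both strands of the promoters; none of those spelled here contains another. The ETS site, spelled CCGGAAG, was in 16 of 43 members (37.2%) and 12.2% of all genes. Among the promoters shown it was in Psme3 and Psmg1. The GC box, GGGCGG, was in 24 of 43 members (55.8%) against 47.8% of all genes, among them Psmc4, Psme2 and Psmb9. The CCAAT box was in 15 of 43 (34.9%) against 38.5%, among them Psme3, Psma3 and Psmb9. The antioxidant response element, TGACNNNGC, is the kind of site through which Nfe2l1 is known to raise proteasome genes. It was in 6 of 43 members (14.0%) and in 13.2% of all genes. The interferon-stimulated response element was in 5 of 43 (11.6%) against 3.32% and was not found in the windows of Psmb8, Psmb9 or Psmb10. A p53 half-site was in 2 of 43 (4.65%) against 7.21%. The CRE, TGACGTCA, was in 0 of 43, against 2.36%. A match is only a match of letters in these windows.

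The members were spread over 16 chromosomes, and those with a TDG peak over 7. The largest number, 10 members with 1 peak (Psme3), was on chromosome 11, where TDG was counted at 19.7% of the protein-coding genes. Chromosome 14 held 6 members (Psmd6, Psmc6, Psmb5, Psmb11, Psme1 and Psme2), and only 3.06% of its genes had a TDG peak. On chromosome 12, where the share was 24.3%, Psma3, Psma6 and Psmc1 were not counted. The part of chromosome in the class counts was not tested.

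Some members without a peak of their own lay near TDG peaks of neighbours. Members had a TDG summit within 10 kb in 12 of 51 cases (23.5%), against 18.4% of all protein-coding genes, and 5 of the 12 were not within 1 kb. Among these 5 was Psma3, whose summit lay inside its own gene record and not at a neighbour. The median distance to a TDG summit was 68786 bases for members and 175436 bases for all genes. Psmd2 lay 9273 bases from a peak of 8.33-fold at Eif4g1, a translation initiation factor gene. Psmd12 lay 8799 bases from a peak of 5.99-fold at Pitpnc1, and Psmc3ip 4987 bases from a peak of 5.99-fold at Mlx and Coasy, both at the median of gene-end peaks.

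p53 was assigned to no proteasome gene. None of the 126 p53 peaks had its summit in one of the 51 genes or had one of them as nearest protein-coding gene (0 of 51, exact upper limit 6.98%; 3 counts would be 5.88%), against 0.512% of all protein-coding genes. At that background, a list of 51 genes is too short to show a lower share. The nearest case was Psma5, 104703 bases from a p53 peak (chr3:108384521-108384803, 17.1-fold) assigned to Psrc1. Psmb3 followed at 393111 bases and Psmc1 at 655743 bases. The median distance was 6361347 bases over the 42 members on chromosomes with a p53 peak, against 5781699 bases over all 19303 such genes. For the other 9 members, on chromosomes 14, 18 and X, no p53 peak lay on the chromosome. Psmb8 and Psmb9 lay 5103691 and 5087526 bases from p53, in both cases from a peak of 12.6-fold assigned to Cdkn1a, the cell cycle inhibitor gene and a known p53 target. No member thus had peaks of both proteins.

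Partners and regulators of the proteasome outside the name rule included genes with TDG peaks. Of 27 names, 23 matched a protein-coding gene, and 9 of the 23 (39.1%, interval 19.7 to 61.5%) had a TDG peak at an end, against 12.3% of all genes. The names were picked with earlier results of these data known, and the difference was not tested. Of the 23, 16 had a CpG-rich promoter, as did 8452 of the 17492 genes with a listed promoter. Among all genes, 22.5% of those with a CpG-rich promoter had a TDG peak at an end, against 4.00% of those with other listed promoters. The 23 genes were not split by promoter, so their share has no matching background here. The part of promoter CpG content was not tested. Adrm1 and Sem1 encode regulatory particle subunits outside the name rule: Adrm1, a ubiquitin receptor of the base, had a peak of 4.41-fold 85 bases from its end, and Sem1, a small lid subunit, one of 5.09-fold at 50 bases. Nfe2l1, the factor known to raise proteasome genes when the proteasome is impaired, had a peak of 5.73-fold at 269 bases. Its relative Nfe2l2, the factor of the antioxidant response, had one of 5.83-fold at 37 bases.

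The other 5 encode proteins that handle ubiquitin-tagged substrates. The shuttle factor genes Rad23b and Ubqln4 had TDG peaks of 7.81-fold at 135 bases and 5.73-fold at 312 bases. Vcp, the gene of the segregase that extracts substrates, had one of 6.77-fold at 192 bases, and Faf1, the gene of a Vcp cofactor, one of 5.33-fold at 8 bases. Ube3c, the gene of a ubiquitin ligase at the proteasome, had one of 4.95-fold at 34 bases. Pomp, the assembly chaperone gene, and Uchl5 and Usp14, the genes of deubiquitinases at the regulatory particle, had none. For p53, 1 of the 23 genes was assigned a peak, against 0.512% of all genes. This gene was Nfe2l2, the nearest gene to a peak of 28.6-fold (chr2:75768223-75768555), 63720 bases away. Its TDG peak (chr2:75704371-75705102) was a separate one.

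Genes that work with the immunoproteasome in antigen presentation were too few to be told apart from the background. Of Tap1, Tap2, Tapbp, Erap1, B2m and Nlrc5, 0 of 6 had TDG at an end (exact upper limit 45.9%), against 12.3% of all genes. p53 was assigned to none of them, against 0.512% of all genes. Of these 6 genes 1 had a CpG-rich promoter. Nlrc5, the activator of class I genes, was the closest, 5481 bases from a TDG summit of 4.44-fold.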

How the data were processed

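ChIP-seq peak lists of 2 B16 libraries were used, each the only library of its group. Trim Galore, Bowtie2, Picard, deepTools, MACS2, ChIPseeker and mm10 are named, without versions, per the submitters' processing notes. Which library served as control, and at what threshold peaks were called, is not given in the sources used here. Deposited by the authors are fold enrichment (a ratio of the summit to the local background, with a constant added to each), −log10 p, −log10 q, a score (the −log10 q times 10, without decimals) and positions. Folds were set side by side only among peaks of one list, and total reads per library are unknown here. Reads at TDG summits were recovered by solving the MACS2 formulas for fold and p (scale 0.924, whole within 0.05 reads for 3409 of 3410 peaks). Summit reads are given with the scale divided out, and backgrounds as scaled reads. The steps were tested on simulated data.

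A TDG peak was counted for a gene when its summit lay within 1 kb of either end. A p53 peak was assigned to genes holding its summit and to the protein-coding gene with the nearest end. A TDG peak could count for more than one gene. Starts, strands and promoters came from a RefSeq table that lists 43 of the 51 members. Intervals are exact binomial or Poisson 95% intervals and cover counting error only. PCR reads are not independent molecules. Genes are not replicates, and no test was run. The members and lists were chosen with earlier results of these data known. The limit for CpG-rich promoters, the promoters shown, and the core and other genes named in the CpG comparison were chosen after values were seen. So were the near neighbours beyond 3 kb. The rule named every member with a peak, the immunoproteasome genes and the subunits they replace, members between 1 and 3 kb (there were none) and other listed genes with a peak. Python 3.11.15, pandas 2.3.3, numpy 2.4.6 and scipy 1.17.1 were used.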

Additional observations from a re-analysis of the deposited data

How the results depend on the processing

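The count of 7 of 51 genes with a TDG peak stayed at 7 with windows of 500 bases or 3 kb, with any base of the peak in place of the summit, and without Psmc3ip. The shares of all genes were 11.0% at 500 bases, 14.3% at 3 kb and 12.6% with any base. The members' 13.7% was thus above the background at 500 bases and below it at 3 kb. The count was 6 for peaks with a −log10 q of at least 5 (without Psma5), where 11.0% of all genes remained. It was 6 of 48 without Psmc3ip, Psme3ip1 and Psme2b, a choice made after seeing the data. Only 1 gene, Psme3ip1, was left when peaks had to reach the list's median fold enrichment, where 6.62% of all genes remained. That limit left 0 core and 0 base genes, and the −log10 q limit left 0 core genes. With listed gene starts only, the count was 7 of 43, against 13.6% of all genes with a listed promoter. It included 2 core genes (Psma5 and Psma3) and 1 base gene (Psmc4), since Psmc3 has no listed promoter. Lid and immunoproteasome genes under the name rule, which leaves out Sem1 of the lid, stayed at 0 under every setting run. The median fold of 5.37 was 5.42 with the −log10 q limit, and the median on the −log10 q scale was 7.71. No p53 setting assigned a member. No paired analysis was possible because each group held 1 library. Without the IgG, input and untagged libraries, and with 20 to 32 reads at a summit, a gene just under the calling threshold cannot be told from one without TDG.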

Other observations

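Among the nearest TDG peaks of members, 3 without a peak of their own had the highest fold enrichments. The nearest TDG peak to Psmc5, an ATPase gene of the base, reached 10.1-fold with 38 reads at the summit and ranked 46 of 3410 by fold enrichment. It lay 10034 bases from Psmc5, within 1 kb of the ends of Smarcd2, which encodes a chromatin remodelling subunit, and Tcam1. The nearest peak to Psmb3 was 8.59-fold, 31608 bases away at Cwc25 and Pip4k2b. The nearest to Psmc1 was 8.85-fold, 64227 bases away and at no end of a protein-coding gene.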
